A study of Mus musculus with 11 samples.

Results

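The Toll-like receptors Tlr1 to Tlr6, their adaptor Myd88, the lipopolysaccharide co-receptor Cd14 and the cytosolic receptors Nod1 and Nod2 were examined in the gingival epithelium of adult mice. These 10 genes were chosen by name from the table of normalized counts, and all 10 had values among 19170 genes with values. The epithelium came from 11 Langerin-DTR mice, in which the langerin promoter drives a diphtheria toxin receptor, and any cell that makes langerin dies when diphtheria toxin (DT) is given. PBS was injected into 5 of them and DT into 6. Injections fell in each of the third, the fourth and the fifth week of life, and tissue was taken in the eighth week from male mice held free of specific pathogens, by the methods of the study. The PBS mice carried the same transgene, so the groups differed in the injected agent. DT acted weeks before collection. By flow cytometry, the study reported that gingival Langerhans cells, which make langerin, returned gradually and were at normal frequencies by the eighth week. Cd207, which encodes langerin, had 10.0 to 43.0 normalized counts after PBS and 15.8 to 21.6 after DT, so the collected tissue was not devoid of langerin transcripts in either group. The comparison asked whether transcripts of these sensors differed in adult epithelium after langerin-expressing cells had been removed around weaning.

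Toll-like receptors are membrane proteins that recognise conserved parts of microbes. At the cell surface TLR2 binds bacterial lipoproteins as a partner of TLR1 or TLR6, TLR4 responds to lipopolysaccharide handed over by CD14, and TLR5 binds flagellin, while TLR3 recognises double-stranded RNA in endosomes. Most of these receptors signal through the adaptor MYD88 to NF-kB, TLR3 uses another adaptor, and NOD1 and NOD2 recognise fragments of bacterial peptidoglycan in the cytosol. In the gingiva, keratinocytes and resident leukocytes both carry such sensors, and the epithelium is in constant contact with bacteria.

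With all 11 mice none of the 10 sensing genes passed an adjusted p of 0.1 in limma (described below). Without the PBS mice highest in leukocyte markers Tlr5, Nod2 and Myd88 passed, as did 10.3% of all genes. The stretches before the RefSeq starts of these 3 genes are shown for that reason, a choice made after their values were seen. They are the RefSeq bases of GRCm38.p6 before the annotated start, 5′ to 3′ on the strand of the gene, without any base that lies in an annotated exon of the gene, which removed 23 bases for Myd88 and 32 for Nod2. The Tlr5 stretch covers chr1:182954538-182954787 (plus strand), the Nod2 stretch chr8:88647097-88647314 (plus strand) and the Myd88 stretch chr9:119340042-119340268 (minus strand). The Myd88 stretch lies inside the span that GENCODE gives the gene, whose annotated 5′ end is farther upstream at 119341411, so it precedes the RefSeq start and not the outermost one. Capitals mark a form of the NF-kB site in Tlr5 and Nod2 (GGG, any 5 bases, then CC) and a form of the interferon-stimulated response element in Myd88 (GAAA, any 2 bases, then GAAA), searched on both strands.
Tlr5: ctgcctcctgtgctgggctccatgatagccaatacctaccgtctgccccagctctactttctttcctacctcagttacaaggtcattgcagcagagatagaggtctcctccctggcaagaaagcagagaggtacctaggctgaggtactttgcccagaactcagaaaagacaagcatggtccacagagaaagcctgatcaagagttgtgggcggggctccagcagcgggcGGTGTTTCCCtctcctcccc
Nod2: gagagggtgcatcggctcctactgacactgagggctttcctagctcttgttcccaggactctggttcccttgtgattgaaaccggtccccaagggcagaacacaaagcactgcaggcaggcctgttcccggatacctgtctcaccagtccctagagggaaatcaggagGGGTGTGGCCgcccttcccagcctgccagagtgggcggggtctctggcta
Myd88: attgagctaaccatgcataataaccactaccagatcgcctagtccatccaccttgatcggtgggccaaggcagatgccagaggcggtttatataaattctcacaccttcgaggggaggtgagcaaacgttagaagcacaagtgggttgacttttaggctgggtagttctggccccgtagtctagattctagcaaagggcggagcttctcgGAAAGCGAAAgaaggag
The match began 20 bases before the start in Tlr5, 82 bases before it in Nod2 and 40 bases before it in Myd88. Of the 10 genes 8 had promoter entries, with 11 windows of 250 upstream bases, whereas Tlr4 and Cd14 had none. The NF-kB form occurred in 6 of these 11 windows and in 45.8% of all 32851 windows, so it is a common match. The interferon form occurred in 2 of the 11 windows, that of Myd88 and a window of Tlr6, against 2.98% of all windows. The other Tlr6 window had no such match. For both Tlr6 windows the bases after the start were not found in a GENCODE transcript of the gene, so these starts are uncertain. TGANTCA, the AP-1 form, occurred in 0 of the 11 against 6.75%. No match overlapped one of another kind in the stretches printed, and a match describes letters, not a bound site.

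The reads assigned to genes ranged from 17509328 to 24325513 in a mouse, with a median of 20164510 in the PBS group and 20859076 in the DT group, and a single read was worth 0.845 to 1.15 normalized counts. Keratinocyte markers summed to between 2746749 and 3047573 normalized counts in every mouse, and 4 of the 6 neutrophil markers and 2 of the 5 T cell markers had no value. The 5 general leukocyte markers summed to 217 to 529 after PBS and to 135 to 318 after DT, with PBS 3 and PBS 5 highest. Markers of Langerhans and dendritic cells summed to 1248 to 3329 after PBS and 844 to 1812 after DT, and those of macrophages and monocytes to 375 to 602 and 367 to 545. The sums were 1252 to 1449.9 and 1109 to 1594 for fibroblasts, 54.6 to 95.05 and 45.3 to 118 for endothelium, 27.2 to 56.7 and 28.5 to 63.3 for muscle, and 9.72 to 62.8 and 10.98 to 26.4 for B cells, in the same order of groups. No marker in these lists passed the test described next. In it all 5 leukocyte markers and all 5 markers of Langerhans and dendritic cells were lower after DT, as were 52.7% of all genes. In each of these 2 lists 2 markers stood at an unadjusted p under 0.05, where 6.19% of all genes were lower. Of the 9 keratinocyte markers 2 were lower after DT, none at that level. Lower after DT were also 6 of 7 macrophage and monocyte markers, 2 of 2 neutrophil, 2 of 3 T cell and 4 of 4 B cell markers. So were 4 of 6 fibroblast, 2 of 4 endothelial and 1 of 4 muscle markers. Among these further lists, 1 macrophage marker (Csf1r) and 1 fibroblast marker (Col1a1) stood at that level, both lower. Of 19170 genes tested, 107 passed an adjusted p of 0.1 in limma (moderated linear model on log2(normalized count + 1), Benjamini-Hochberg over all genes). Fos, Jun and Atf3, transcription factor genes that are rapidly induced by stress, were among them, and Fos was between 2282 and 9475 normalized counts after PBS and between 10882 and 17819 after DT. The part of handling or of immediate early genes in the results that follow was not tested.

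None of the 10 sensing genes passed the adjusted threshold, which 0.558% of all genes passed (0.313% higher and 0.245% lower after DT). The adjusted p-values from limma ranged from 0.255 to 0.975. At an unadjusted p under 0.05 stood 3 of the 10 genes, a level reached by 11.5% of all genes. Tlr4 was the higher of these after DT (5.31% of all genes were higher at that level), and Tlr5 and Nod2 were lower (6.19% of all genes). The values of the PBS and DT mice overlapped for all 10 genes, while 1.65% of all genes, and 2.11% of those with a mean of 10 or more, showed no overlap. In sign, 8 of the 10 log2 fold changes were below 0, against 52.7% of all genes, and their median was -0.18, against -0.011 over all genes. In bulk epithelium, fewer cells that carry a sensor and less RNA per cell cannot be told apart. The p-values measure the spread between these 11 mice, for which the labels name no cage or litter.

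**Figure D1:**
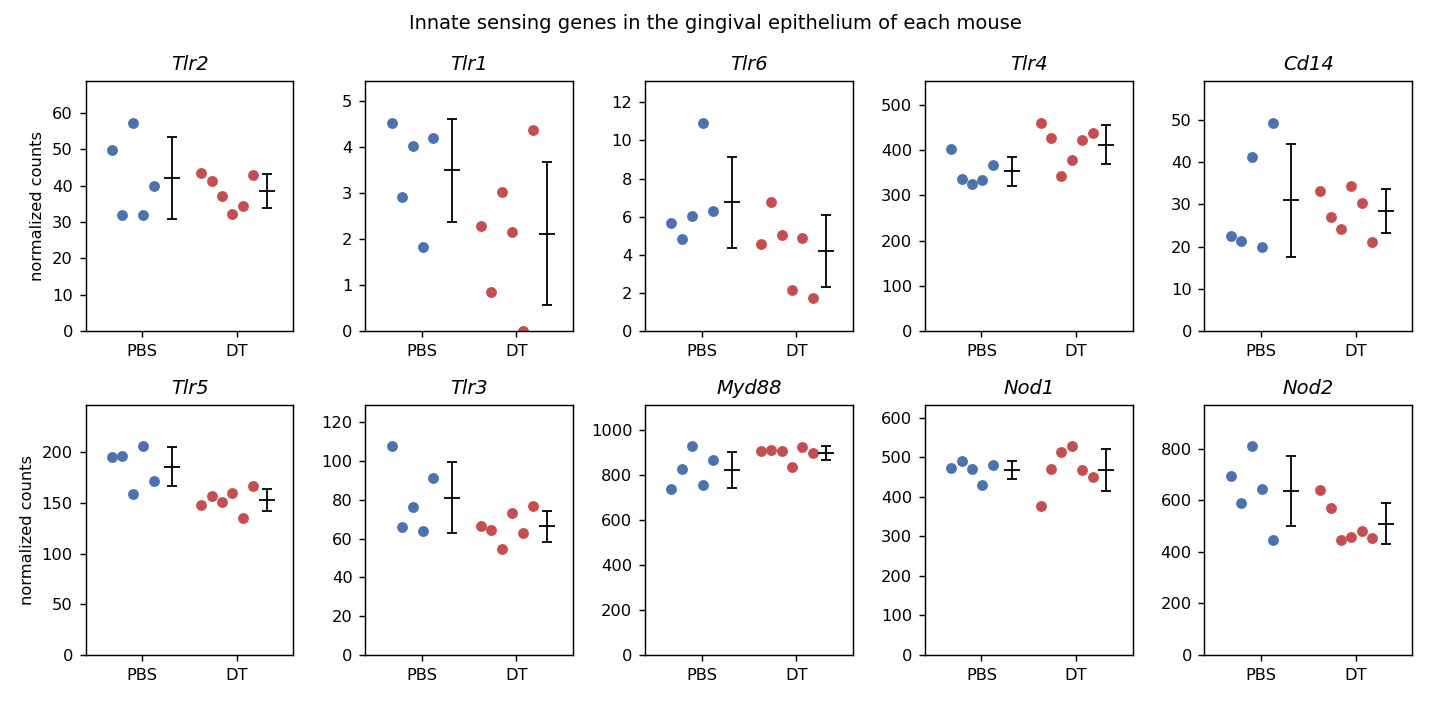
Normalized counts of the 10 sensing genes (vertical axes, each starting at 0 with its own scale) in 5 PBS mice (blue) and 6 DT mice (red), drawn from left to right by replicate number, with the mean and SD of each group as a bar to the right of its points. The DT points of Tlr5 sit between 135 and 167 and those of Tlr4 between 343 and 461, and every panel shows some overlap between the groups.

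TLR5, the flagellin receptor, gave the smallest p of the 10 genes. Tlr5 (ENSMUSG00000079164, chromosome 1 of GRCm38 from 182954788 to 182976044, plus strand) had 196, 196, 159, 206 and 172 normalized counts, in the order of the PBS replicates, and a lowest value of 135, a median of 154 and a highest value of 167 in the DT mice. All 6 DT mice were below the PBS median and 4 of them below every PBS mouse, and PBS 3 was the single PBS mouse inside the DT range. The means were 186 ± 19.5 (SD, n = 5) and 153 ± 11.002 (SD, n = 6). The log2 fold change was -0.27 (SE 0.090, 95% interval -0.47 to -0.083, limma adjusted p = 0.255). Leaving out single mice gave log2 fold changes from -0.33 to -0.24, and none of these fits passed the adjusted threshold.

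For the lipopolysaccharide receptor the difference had the opposite sign. Tlr4 (ENSMUSG00000039005, chromosome 4 from 66827584 to 66930284, plus strand) had 403, 336, 325, 334 and 368 normalized counts in the PBS mice, and 343, 425 and 461 as the lowest, median and highest values after DT. Of the DT mice, 4 of 6 were above every PBS mouse, and DT 3 and DT 4 lay inside the PBS range. The means were 353 ± 32.2 (SD, n = 5) and 412 ± 42.9 (SD, n = 6). This was a log2 fold change of 0.22 (SE 0.083, 95% interval 0.042 to 0.39, limma adjusted p = 0.318). Cd14 (ENSMUSG00000051439), whose product loads lipopolysaccharide onto the TLR4 complex, had 22.6, 21.4, 41.2, 20.0 and 49.3 normalized counts after PBS, and 21.002, 28.7 and 34.4 as the lowest, median and highest values after DT. PBS 3 and PBS 5 were above all other mice, and the remaining 3 PBS mice were at the lower end of the DT range or just below it. The log2 fold change of Cd14 was -0.043 (SE 0.25, 95% interval -0.56 to 0.48, limma adjusted p = 0.969), and it became 0.15 without PBS 5 and 0.38 without both high PBS mice (adjusted p = 0.828 and 0.328), and 0.037 without DT 6, so its sign was not stable.

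TLR2 pairs with TLR1 for triacylated and with TLR6 for diacylated lipoproteins. Tlr2 (ENSMUSG00000027995, chromosome 3 from 83836272 to 83841767, minus strand) had 49.8, 32.1, 57.3, 31.9 and 39.9 normalized counts after PBS, and 32.2, 39.3 and 43.6 as the lowest, median and highest values after DT. Every DT mouse lay inside the PBS range, with PBS 1 and PBS 3 highest. Its log2 fold change was -0.095 (SE 0.18, 95% interval -0.47 to 0.28, limma adjusted p = 0.881), and without PBS 3 it was 0.023.

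The partners of TLR2 were near the limit of detection. Tlr1 (ENSMUSG00000044827, chromosome 5 from 64924679 to 64933563, minus strand) had 30 reads summed over the 11 mice, with 4.53, 2.92, 4.02, 1.82 and 4.20 normalized counts after PBS. After DT its median was 2.22, its highest value was 4.38, and DT 5 had 0 reads, which allows up to 3 reads or 2.94 normalized counts there, a limit that covers counting error only. Tlr6 (ENSMUSG00000051498, chromosome 5 from 64952031 to 64960097, minus strand) had 60 reads in all, with 5.66, 4.86, 6.04, 10.9 and 6.30 normalized counts after PBS, and 1.75, 4.75 and 6.76 as the lowest, median and highest values after DT. Each gene had 5 of 6 DT mice below the PBS median, in ranges that overlapped, and PBS 4 held the highest Tlr6 value. The log2 fold changes were -0.68 for Tlr1 (SE 0.43, 95% interval -1.58 to 0.22, limma adjusted p = 0.573) and -0.62 for Tlr6 (SE 0.34, 95% interval -1.34 to 0.093, adjusted p = 0.498). Both intervals include 0, and with a pseudocount of 5 in place of 1 the log2 fold changes were -0.28 and -0.36. The genes lie 18.5 kb apart, and 13.6% of the stretches of 50 bases in Tlr1 transcripts also occur in Tlr6, as do 7.89% of stretches of 100 bases, so reads could be exchanged or lost between them and each level is uncertain.

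For TLR3, the endosomal receptor for double-stranded RNA, the transcript had a lower mean after DT that did not pass the adjusted threshold. Tlr3 (ENSMUSG00000031639, chromosome 8 from 45395665 to 45411080, minus strand) had 107, 66.1, 76.4, 63.7 and 91.3 normalized counts after PBS, and 54.4, 65.3 and 77.0 as the lowest, median and highest values after DT. PBS 1 and PBS 5 stood above all DT mice, and DT 3 and DT 5 stood below all PBS mice. The log2 fold change was -0.27 (SE 0.15, 95% interval -0.58 to 0.050, limma adjusted p = 0.515). An antisense gene, Gm45542, shares exon sequence with Tlr3, and the strand setting of the counting is not given in the sources used here, so its reads cannot be separated from those of Tlr3 with certainty.

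MYD88, the adaptor that couples most Toll-like receptors to their kinases, was the most abundant of the 10 transcripts. Myd88 (ENSMUSG00000032508, chromosome 9 from 119335934 to 119341411, minus strand) had 738, 828, 927, 755 and 868 normalized counts after PBS, and 834, 908 and 926 as the lowest, median and highest values after DT. All 6 DT mice lay above the PBS median and inside the PBS range, with 5 of them within 899.6 to 926 and DT 4 apart at 834. The means were 823 ± 78.8 (SD, n = 5) and 898 ± 32.4 (SD, n = 6). They gave a log2 fold change of 0.13 (SE 0.062, 95% interval -0.0018 to 0.26, limma adjusted p = 0.438). An exon of Acaa1a on the opposite strand overlaps Myd88, so reads of that gene may be included if strand was ignored.

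Of the peptidoglycan receptors, Nod1 had almost equal means in both groups and Nod2 a lower mean after DT, and neither passed the adjusted threshold. Nod1 (ENSMUSG00000038058, chromosome 6 from 54923949 to 54972612, minus strand) had 472, 489.8, 469.7, 431 and 481 normalized counts after PBS, and 376, 468 and 527 as the lowest, median and highest values after DT. The DT mice surrounded the PBS mice, with 1 below and 2 above the whole PBS range, and the log2 fold change was -0.011 (SE 0.079, 95% interval -0.18 to 0.16, limma adjusted p = 0.975). Nod2 (ENSMUSG00000055994, chromosome 8 from 88647315 to 88688474, plus strand) had 694, 589, 809, 642 and 445 normalized counts after PBS, and 445, 469.5 and 641 as the lowest, median and highest values after DT. PBS 5 was just below all DT mice, while the other 4 PBS mice were above 5 of the 6 DT mice, and every DT mouse lay inside the PBS range. The means were 636 ± 134 (SD, n = 5) and 508 ± 79.6 (SD, n = 6). The resulting log2 fold change was -0.31 (SE 0.13, 95% interval -0.59 to -0.032, limma adjusted p = 0.371). Without PBS 5 the difference in Nod2 was -0.43 (SE 0.11) and passed the threshold (adjusted p = 0.0900), as 1.35% of all genes then did.

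**Figure D2:**
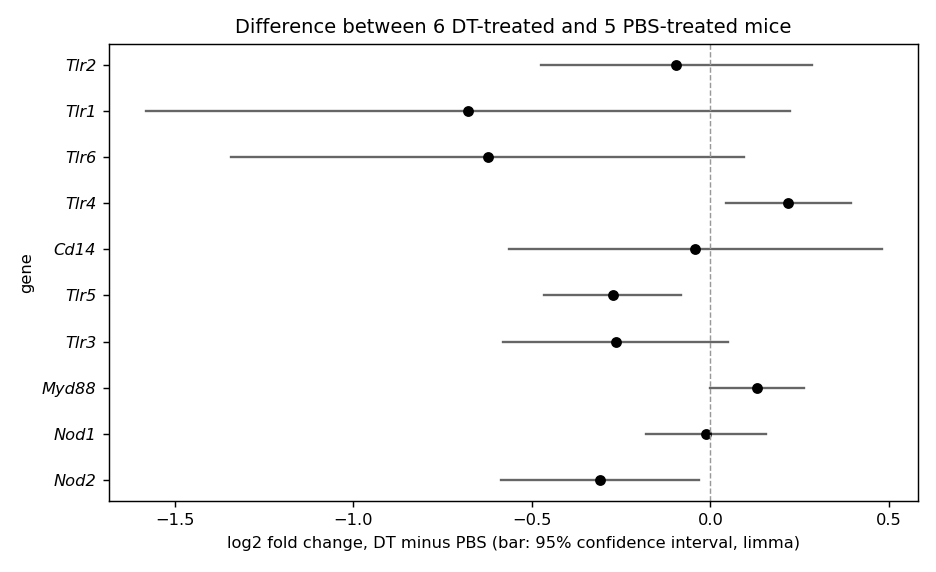
Log2 fold change of each sensing gene (horizontal axis, DT minus PBS, 6 and 5 mice) with its 95% confidence interval from limma as a bar. The intervals of Tlr5 (-0.47 to -0.083), Nod2 (-0.59 to -0.032) and Tlr4 (0.042 to 0.39) lie off the dashed line at 0 before adjustment, and the widest are those of the low genes Tlr1 and Tlr6.

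Because leukocyte markers were highest in PBS 3 and PBS 5, the comparison was repeated without both, a setting chosen after the data were seen. Of the 10 genes 3 then passed the adjusted threshold, as did 10.3% of all genes (1967). They were Tlr5 at -0.38 (limma adjusted p = 0.0269), Myd88 at 0.22 (adjusted p = 0.0393) and Nod2 at -0.35 (adjusted p = 0.0674). The part of leukocyte content in these differences was not tested.

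Per kb of exon, the 10 sensors spanned a 401-fold range of medians over the 11 mice. Levels per kb compare between genes only where reads are spread along the whole transcript. The study names a stranded mRNA kit but processed reads by the guide of another kit, QuantSeq, so this could not be settled. Myd88 was highest at 349 normalized counts per kb and lay above every other member in each of the 11 mice, with no overlap of ranges. It was followed by Nod2 at 114, Nod1 at 92.5 and Tlr4 at 68.2. Neighbours in this group had overlapping ranges, with Nod2 above Nod1 in 8 of 11 mice and Nod1 above Tlr4 in 10 of 11. Tlr4 in turn exceeded Tlr5, at 33.4 per kb, in all 11 mice without overlap, and Tlr5 exceeded Cd14 in all 11 mice although their ranges met.

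The lower levels were held by Cd14 at 15.6, Tlr2 at 13.2 and Tlr3 at 12.8 normalized counts per kb, whose ranges overlapped. Cd14 was above Tlr2 in 9 of 11 mice and Tlr2 above Tlr3 in 4 of 11, so the order of these 3 genes was not fixed. Without division by length their order was reversed, with means over all mice of 73.0 for Tlr3, 40.2 for Tlr2 and 29.5 for Cd14. Tlr6 at 1.35 and Tlr1 at 0.871 per kb closed the order, below all other members in every mouse and not separable from each other by range. Among 19121 genes with a length, Myd88 stood above 87.8% and Tlr1 above 12.3%. The order in the epithelium placed both peptidoglycan receptors and Tlr4 well above Tlr2 and its partners.

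**Figure D3:**
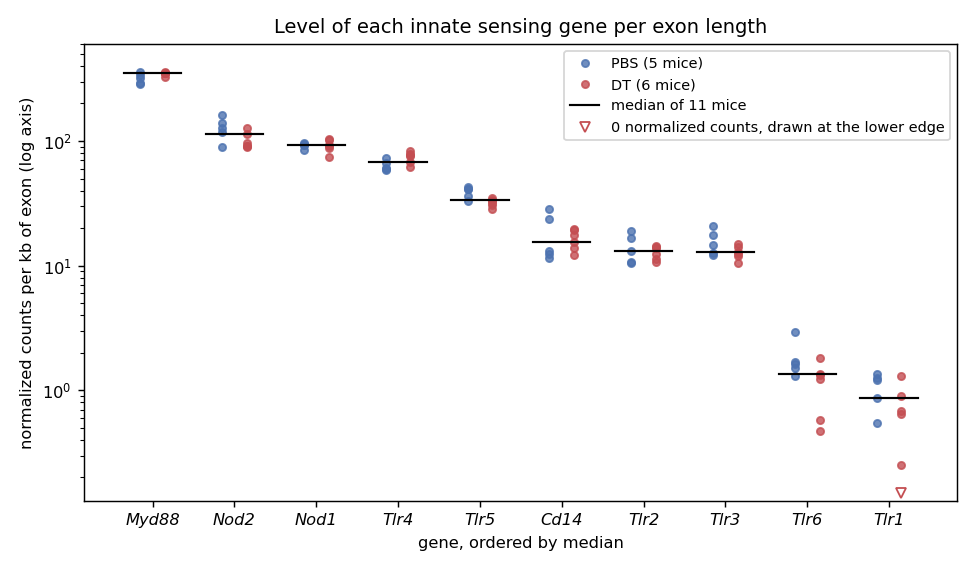
Normalized counts per kb of exon (log axis) for each gene, ordered by the median over 11 mice (black line), with PBS mice in blue and DT mice in red. Medians fall from 349 for Myd88 to 0.871 for Tlr1, and the Tlr1 value of DT 5, which is 0, is drawn as an open triangle at the lower edge.

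Receptors that act together or sense related ligands were also compared as ratios within each mouse, in which the scaling of a library cancels apart from the pseudocount of 1 added to both values, which matters for low genes. The log2 ratio of Tlr2 to Tlr4 was -2.99, -3.35, -2.48, -3.35 and -3.18 in the PBS mice, and ranged from -3.58 to -3.17 in the DT mice. All 6 DT mice were below the PBS mean, and the mean difference was -0.31 (two-sided exact permutation test over all splits of the mice, p = 0.0649, adjusted p = 0.254 over 5 ratios). On the log2 scale the ratio of Nod2 to Nod1 spanned -0.11 to 0.78 in the PBS mice and -0.21 to 0.77 in the DT mice, with a difference of -0.30 (exact p = 0.190, adjusted p = 0.254). Cd14 relative to Tlr4 differed by -0.26 (exact p = 0.357, adjusted p = 0.357). Tlr1 and Tlr6 relative to Tlr2 differed by -0.58 and -0.53 (exact p = 0.184 and 0.203, adjusted p = 0.254 for both), on few reads, and with a pseudocount of 5 these differences were -0.19 and -0.27. No ratio passed the threshold of 0.05, and the smallest p that the splits allow is 0.00216.

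The genes also differed in how far the mice of a group varied. Nod2 had a coefficient of variation of 21.1% among PBS mice and 15.7% among DT mice, against 4.19% from counting alone. Nod1, read at a like depth, varied by 4.82% after PBS and 11.5% after DT, against 4.60% from counting. Cd14 varied by 43.5% after PBS and 18.5% after DT, where counting alone gives 18.4%. In Tlr5 the spread of 10.5% after PBS and 7.19% after DT was close to the 7.68% of counting, and that of Tlr6, 35.5% and 45.3%, was close to 42.8%.

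Since leukocytes carry several of these sensors, each gene was set against a leukocyte score, the mean over Ptprc, Cd52, Laptm5, Coro1a and Cd53 of the log2 value minus the mean of the gene over all mice. In the PBS mice the score spanned -0.206 to 1.07, and in the DT mice -0.754 to 0.323. Cd14, a gene of monocytes and macrophages, had the largest Pearson coefficient with it, and Tlr3 the largest Spearman coefficient. For Cd14 Pearson r was 0.647 and Spearman rho 0.582 over 11 mice (permutation p = 0.0310 and 0.0648, adjusted p = 0.310 and 0.324 over 10 genes). Without PBS 3 and PBS 5, the mice farthest from the median score, r for Cd14 was 0.1002, whereas within the 6 DT mice r was 0.495 and rho 0.714 (exact p = 0.328 for r, adjusted p = 0.681), so the relation over all 11 mice fell without those PBS mice and did not pass within the DT group. Tlr3 had r = 0.536 and rho = 0.655 (permutation p = 0.0884 and 0.0329, adjusted p = 0.392 and 0.324), and r was 0.492 without the same mice and 0.719 within the 6 DT mice (exact p = 0.0944). For Tlr5 r was 0.236, for Nod2 0.390 and for Tlr4 -0.402, with rho of 0.345, 0.291 and -0.355 (permutation p from 0.224 to 0.485 for r, adjusted p of 0.392 or more). Myd88 had r = -0.040 over 11 mice and -0.815 within the DT mice (exact p = 0.0542, adjusted p = 0.472). Coefficients of the other genes were 0.480 for Tlr1, 0.419 for Tlr2, 0.134 for Nod1 and 0.067 for Tlr6, with rho from 0.109 to 0.309 (permutation p from 0.136 to 0.851 for r and from 0.358 to 0.754 for rho). No relation passed an adjusted p of 0.05. Within the 5 PBS mice no coefficient was computed because the group is too small.

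**Figure D4:**
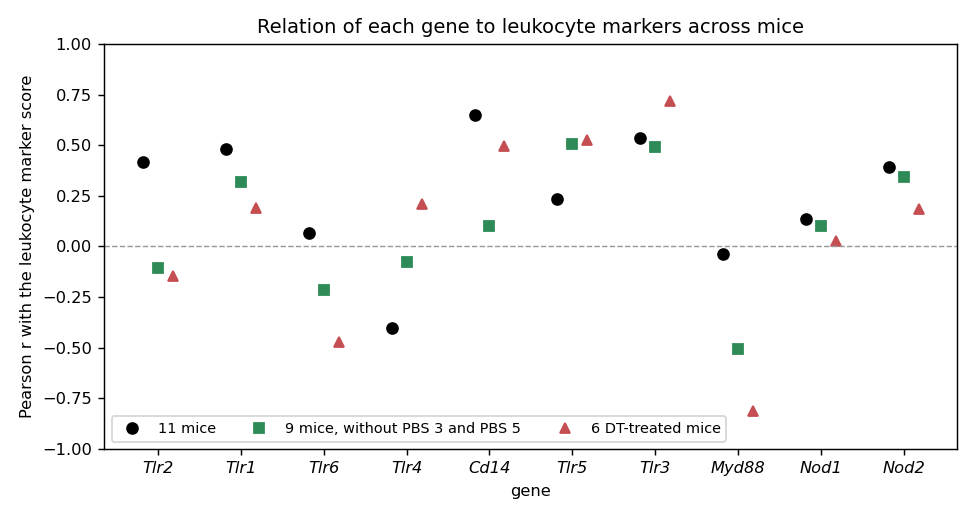
Pearson r of each sensing gene with the leukocyte marker score (vertical axis) over 11 mice (black circles), over the 9 mice without PBS 3 and PBS 5 (green squares) and within the 6 DT mice (red triangles). Cd14 lies at 0.647, 0.1002 and 0.495 and Tlr3 at 0.536, 0.492 and 0.719, in the order of these sets.

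The other genes of these pathways were read from the same fit in 6 lists. Of 82 listed genes 76 had values, none passed the adjusted threshold of limma, and 5 were higher and 6 lower after DT at an unadjusted p under 0.05, that is 14.5% of them against 11.5% of all genes, with a median log2 fold change of -0.015. The remaining Toll-like receptors were barely present, since Tlr8 and Tlr11 had no value and Tlr7, Tlr9, Tlr12 and Tlr13 each had a mean under 10 normalized counts. Tlr9, the endosomal receptor for bacterial DNA, had means of 3.65 ± 0.592 (SD, n = 5) and 2.43 ± 2.97 (SD, n = 6), with a limma adjusted p of 0.538. Among 9 co-receptors and chaperones none stood at an unadjusted p under 0.05, and Ly96, the MD-2 subunit that binds lipopolysaccharide beside TLR4, had 106 ± 13.8 after PBS and 102 ± 11.6 after DT. Unc93b1, which carries endosomal receptors to their compartment, and Ly86, the partner of the TLR4 homologue CD180, had log2 fold changes of -0.15 and 0.22 (limma adjusted p = 0.729 and 0.849).

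The list of adaptors, kinases and ligases downstream of the receptors held 28 genes with values, of which 5 were higher and 2 lower at an unadjusted p under 0.05 (5.31% and 6.19% of all genes), with a median log2 fold change of 0.00354. Tollip, an inhibitor of IRAK1 signalling, had 2901 ± 119.5 normalized counts after PBS and 3225 ± 173 after DT, with 5 of 6 DT mice above every PBS mouse and a log2 fold change of 0.15 (limma adjusted p = 0.246). Irak2 at 0.19, Ube2n at 0.14, Peli1 at 0.14 and Irak4 at 0.10 were the other higher genes (limma adjusted p from 0.261 to 0.4005). They encode kinases and ubiquitin enzymes between MYD88 and NF-kB, and the DT mice of Ube2n and Irak4 lay above all PBS mice, while 2.11% of all genes with a mean of 10 or more showed no overlap. Other genes of the same path were near 0, such as Irak1 at -0.0061, Traf6 at -0.0099 and Ikbkb at -0.0022 (limma adjusted p = 0.979, 0.961 and 0.994). Traf3, an adaptor of the interferon branch, was at -0.15 and Ube2v1, the partner of UBE2N, at -0.51 on few counts (limma adjusted p = 0.408 and 0.418). Apart from Tollip and Traf3, these genes were named after their values were seen, as were Ly96, Ripk2 and Nlrc4.

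In the NOD arm 1 of 13 genes stood at an unadjusted p under 0.05, a level reached by 11.5% of all genes. Card9, an adaptor of NOD2 and of C-type lectin receptors in myeloid cells, had 28.3, 19.4, 24.1, 22.8 and 23.1 normalized counts after PBS, and 9.81, 12.8 and 16.1 as the lowest, median and highest values after DT. The groups did not overlap, as in 2.11% of genes with a mean of 10 or more, and the log2 fold change was -0.82 (SE 0.20, 95% interval -1.25 to -0.39, limma adjusted p = 0.127). It passed the threshold when genes with a mean under 10 normalized counts were left out (limma adjusted p = 0.0918). Of the 13477 genes kept there, 105 passed. Ripk2, the kinase that NOD1 and NOD2 share, had 516 ± 59.8 after PBS and 494 ± 88.9 after DT (limma adjusted p = 0.849), and Otulin, a deubiquitinase of linear chains, had a log2 fold change of 0.12 (adjusted p = 0.455).

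Of 14 other NOD-like sensors with values 2 were lower at an unadjusted p under 0.05 (6.19% of all genes), Nlrc3 at -0.45 and Nlrc4 at -0.79 (limma adjusted p = 0.315 and 0.356), the latter with means of 5.19 and 2.59 normalized counts. NLRC4 takes part in the cytosolic response to flagellin, and NLRC3 is known to restrain innate signals. Pycard, the adaptor of inflammasomes, had a log2 fold change of 0.13 (limma adjusted p = 0.501). Among 8 cytosolic sensors of nucleic acids Ddx58, which encodes the RNA sensor RIG-I, had 252 ± 40.1 after PBS and 191 ± 26.9 after DT, with 4 of 6 DT mice below every PBS mouse and a log2 fold change of -0.39 (limma adjusted p = 0.213). Without PBS 4 it passed the threshold (-0.47, limma adjusted p = 0.0996), as did 170 of all 19170 genes. In the fit with all mice Cgas, the DNA sensor, was at 0.076 (adjusted p = 0.778).

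**Figure D5:**
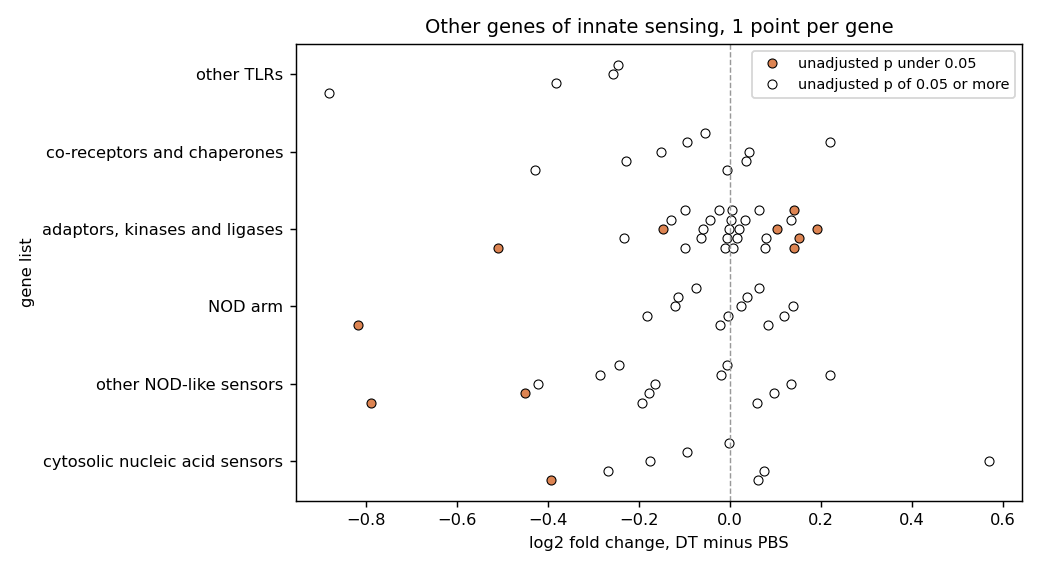
Log2 fold change (horizontal axis, DT minus PBS) of the 76 other innate sensing genes with values, in 6 lists, with filled points for the 11 genes at an unadjusted p under 0.05. The filled points of the adaptor list lie at 0.10 to 0.19, at -0.15 and at -0.51, and the single filled point of the NOD arm is Card9 at -0.82.

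The genes whose values followed each sensor most closely over the 11 mice were read from 13476 candidates whose mean reached 10 normalized counts, for the 8 sensors that also reach it. They are a description without a test, since the highest coefficient that a gene reaches with any other gene had a median of 0.931. Tlr5 was followed most closely by Cep250, which encodes a centrosome protein (r = 0.98), and by the predicted genes Gm10721 and Gm10718 (r = 0.96 and 0.95), and its highest coefficient exceeded that of 93.9% of genes. Gm10721 and Gm10718 were themselves lower after DT (log2 fold change -1.56 and -1.62, limma adjusted p = 0.0965 and 0.0782). The coefficients pool both groups, so they include any difference between the groups. Cd14 was followed by the interferon-induced Ifitm3, the surface antigen gene Ly6a and Pcbd2 (r = 0.97, 0.97 and 0.96), above 90.7% of genes. For Tlr3 the nearest were Kntc1, Pola1 and Brca1, genes of chromosome segregation, DNA replication and DNA repair (r = 0.94, 0.94 and 0.92), above 62.6% of genes.

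Myd88 was nearest to Itm2c, Dctn2 and Pi4k2a (r = 0.95, 0.94 and 0.94), above 71.3% of genes. Nod1 was nearest to C230013L11Rik, Insl6 and Irx3os (r = 0.95, 0.92 and 0.91), above 70.9%. Tlr4 was nearest to Nsa2, Mrpl1 and Paics, the first of which acts in ribosome assembly (r = 0.93, 0.89 and 0.87), above 50.4% of genes. Tlr2 was nearest to Faxc, Ttk and Arhgef28 (r = 0.92, 0.89 and 0.88), above 37.0% of genes. For Nod2 the nearest were Pgghg, Bach1 and Mmab (r = 0.90, 0.89 and 0.87), and only 20.9% of genes had a lower highest coefficient.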

How the data were processed

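Polyadenylated RNA of 11 mice was sequenced as stranded libraries. The reporting form of the study names a stranded mRNA kit, whereas its methods follow the QuantSeq guide for the reads. According to the methods, the authors trimmed reads, aligned them with TopHat2, counted them per gene with HTSeq, dropped genes whose counts summed to under 10 over all mice and scaled each mouse by a DESeq2 size factor. The submitters' processing notes give cutadapt 2.10, TopHat2 2.1.1, HTSeq 2.01, DESeq2 1.36.0 and GRCm39, whereas the methods give GRCm38 and other versions. The deposited values are therefore normalized counts, handled here as a score without a fixed unit, since 36244 of 55414 listed genes hold no value. Within each mouse 100% of low values were whole multiples of a single read (tolerance 0.1), which gave the depth.

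Differences were tested with limma 3.58.1 (R 4.3.3) on log2(normalized count + 1) with an intensity trend, all 11 mice and no covariate. The p-values were adjusted by Benjamini-Hochberg over 19170 genes, and calls were made at 0.1. The code was also run on simulated counts with the same dispersion in every gene. That run does not show how the test performs at the spread of these mice. Fold changes of low genes are understated by the pseudocount. Ratios and correlations used permutation tests in Python 3.11.15, with 100000 permutations for r over 11 mice. Exon lengths and positions came from GENCODE release 21 on GRCm38, matched by identifier for 19121 genes. Promoters came from RefSeq. Tests on counts with edgeR or DESeq2 were planned as alternatives on the recovered reads and not run, because the table was handled as normalized values, and the recovered reads served to describe depth only.

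The sensing genes, the pathway lists and the marker lists were chosen with earlier results of these data known. Genes named were the 10 sensing genes, those with the smallest p per pathway list and direction, and the 3 nearest genes of each sensor, with exceptions given in the text.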

Additional observations from a re-analysis of the deposited data

Results flagged for a closer look

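In 20 groups of mice (10 genes, PBS and DT) the highest and the lowest values were compared with the rest, and chance sets apart about 1 in 20 such groups. Tlr6 in PBS 4, at 10.9 normalized counts, stood apart from the other PBS mice, which had 4.86 to 6.30, on at most 12 reads. Myd88 in DT 4, at 834 normalized counts, stood below the other DT mice, which had 899.6 to 926.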

How the results depend on the processing

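The threshold was an adjusted p of 0.1 in limma throughout. The count of all genes past it was 107, and it became 189 with array weights and 1967 with PBS 3 and PBS 5 left out together. When single mice were left out it was 27 (without DT 5) to 259 (without PBS 5). With the replicate number of the titles as a block, 35 genes passed. That block leaves DT 6, the one mouse with its number in the titles, out of the comparison. Without DT 6 and with no block, 30 genes passed. The library name of PBS 5 carries the number 6, and a block by library name was not run. None of the sensing genes passed with other pseudocounts, a minimum mean of 10, TMM scaling, array weights or the block, 0 to 1 passed without a single mouse (Nod2 without PBS 5) and 3 without PBS 3 and PBS 5. Of the 76 pathway genes with values, 1 passed with the minimum mean (Card9) and 0 to 1 without a single mouse (Ddx58 without PBS 4). Without PBS 3 and PBS 5, 5 passed (Tollip, Ube2n, Nlrp10, Pycard and Card9). Of all 19170 genes, 10.3% passed without PBS 3 and PBS 5, 1.35% without PBS 5, and 170 genes without PBS 4. With the minimum mean, 105 of 13477 genes passed. The cause of these changes was not tested.

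The log2 fold change of Cd14 turned to 0.071 with array weights, 0.037 with the block and 0.38 without PBS 3 and PBS 5, where Tlr2 was 0.048 and Nod1 0.0029. Leaving out single mice gave -0.17 to 0.15 for Cd14, -0.048 to 0.049 for Nod1 and -0.18 to 0.023 for Tlr2, and kept the sign of the other 7 sensing genes. The coefficient with the leukocyte score turned for Tlr2 (-0.108) and Tlr6 (-0.217) without the 2 farthest mice, and within the DT mice for Tlr2 (-0.145), Tlr4 (0.208) and Tlr6 (-0.474). All 60 alternatives for the 5 ratios kept direction and stayed above the threshold, while a pseudocount of 5 took Tlr1/Tlr2 to -0.19 and Tlr6/Tlr2 to -0.27.

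Mice with the same number in the titles were compared by the correlations of their deviations over 13477 genes. These were 0.088, 0.172, -0.233, -0.209 and 0.324, and 1 of 5 PBS mice correlated best with its own number. The main test therefore used no pairing, and a shared cage or litter was not tested. PBS 5 was matched by its title, although its library name carries another number, and the match by library name was not tested. TMM scaling moved the median of all genes by 0.0045 on the log2 scale. The planned edgeR and DESeq2 tests were not run. Tlr1 and Tlr6, with 30 and 60 reads in all, are limited by depth.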
